A study of Caenorhabditis elegans with 4 samples.

Results

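The regions described here are the binding peaks on the outer 25% of each end of the X chromosome of Caenorhabditis elegans, called the left arm and the right arm. They were taken from the authors' peak list for the whole series, as peaks on X whose midpoint lay below position 4429717 or above position 13289149 of a chromosome of 17718866 bp (WormBase WS220 coordinates). The rule uses position only and no measured value. It gave 423 peaks, 233 on the left arm and 190 on the right arm, of 712 peaks on X and 9212 on all nuclear chromosomes.

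The series is a ChIP-seq experiment, in which protein-bound DNA is recovered with an antibody and sequenced, with 2 ChIP samples and 2 input samples of unselected sheared DNA. All 4 samples came from adult hermaphrodites (young adults with a germline in the design text, gravid adults in the growth protocol) of genotype fem-2(b245)III, which the series' design text places at 20 degrees Celsius, so there is no wild-type group. The submitted files are the whole-series list and 1 list for each ChIP sample, here replicate 1 and replicate 2, and depth is unknown because no read counts were used. Sample titles name KLE-2 and the antibody record names CEC-1, and a peak position does not tell which of these was recovered. Whole animals were ground, so a peak cannot be assigned to a tissue or to the germline, and the labels do not state whether the replicates were separate cultures.

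KLE-2 is a subunit of condensin II, a ring-shaped complex that helps to fold and separate chromosomes in mitosis and meiosis. A related condensin sits on both X chromosomes of hermaphrodites and lowers their transcription. CEC-1 is a chromodomain protein, of a family whose chromodomains bind methylated histone tails. FEM-2 is a phosphatase that promotes male fates, sperm production included. On worm autosomes the arms carry more repeats and more methylated histone H3 lysine 9 than the centres, whereas X differs less along its length, and its meiotic pairing centre lies towards the left end. No genome of the WS220 build was used here, so neither sequences nor genes are given for these peaks.

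The arms of X were more densely marked than its centre in all 3 lists, and much less densely than autosomal arms. Whole-series density was 47.7 peaks per Mb on the arms (95% Poisson interval 43.3 to 52.5), against 32.6 per Mb in the centre of X (29.0 to 36.6) and 111 per Mb on autosomal arms (108 to 114). The ratio of arms to centre was 1.46 (1.26 to 1.71), and it was 1.70 in replicate 1 (0.988 to 2.97) and 1.32 in replicate 2 (1.11 to 1.59). The replicate 1 interval includes equal density. Set against autosomal arms the ratios were 0.431, 0.317 and 0.457 in the whole-series list, replicate 1 and replicate 2. Neighbouring peaks are not independent and there were only 2 replicates, so values are given here with exact intervals for counting error and without p-values.

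The left arm had more whole-series peaks than the right arm, but the surplus consisted of peaks that neither replicate contained. Density was 52.6 peaks per Mb on the left arm (46.1 to 59.8) and 42.9 per Mb on the right arm (37.0 to 49.4), a ratio of 1.23 (1.01 to 1.49). Counting only peaks that a replicate peak overlapped by at least 1 bp, each arm had 139 peaks, or 31.4 per Mb (26.4 to 37.1). Peaks in neither replicate numbered 94 on the left arm and 51 on the right arm, a density ratio of 1.84 (1.30 to 2.65). In the replicates' own lists the arms had 21 and 18 peaks in replicate 1, and 135 and 151 peaks in replicate 2, left arm first in both cases. The left to right ratios of those lists, 1.17 (0.592 to 2.32) and 0.894 (0.704 to 1.14), lie on opposite sides of 1, and both intervals include it.

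Counted against the centre of X, peaks with replicate support were 1.40 times as dense on each arm (1.12 to 1.75 for either). For peaks in neither replicate the ratio to the centre was 2.07 on the left arm (1.53 to 2.79) and 1.12 on the right arm (0.779 to 1.60). In covered sequence the left arm had 100.2 kb under whole-series peaks (2.26% of its length) and the right arm 87.1 kb (1.97%), against 1.22% of the centre. Replicate 2 covered 3.18% of the left arm and 3.44% of the right arm, against 2.19% of the centre. Replicate 1 covered 1.07% and 0.860% of the same arms, against 0.510% of the centre.

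**Figure D1:**
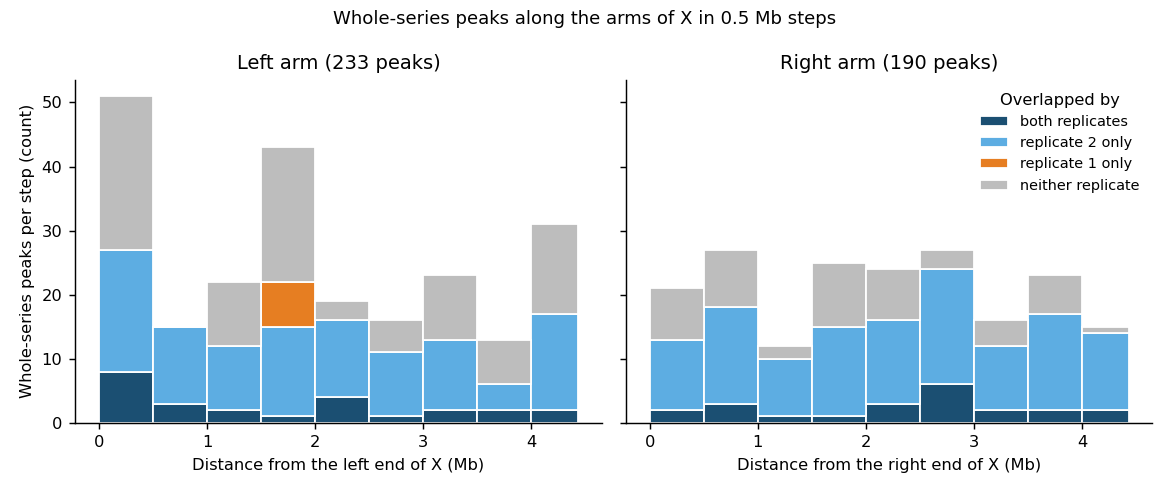
Number of whole-series peaks (vertical axis, count) by distance of the peak midpoint from the left or right end of X (horizontal axis, Mb, steps of 0.5 Mb, the last step shorter). Colours show which replicate lists overlap the peaks. The left arm has tall steps of 51 and 43 peaks, while no step of the right arm exceeds 27.

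Along the left arm the whole-series peaks lay in patches, and along the right arm they were more even. The outermost 500 kb of the left arm held 51 peaks (21.9% of its peaks, 16.8 to 27.8%), and the outermost 500 kb of the right arm held 21 (11.1%, 6.97 to 16.4%). A second dense step of the left arm, 1.5 to 2 Mb from the end, held 43 whole-series peaks. Other full steps of the left arm held 13 to 23 peaks and those of the right arm 12 to 27, while the shorter innermost steps held 31 and 15.

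Replicate support varied from step to step on the left arm. Peaks in neither replicate made up 24 of the 51 peaks in the outermost step and 21 of the 43 in the step from 1.5 to 2 Mb. Between them, in the step from 0.5 to 1 Mb, all 15 peaks were overlapped by a replicate peak. Replicate 1 had 9 of its 21 left-arm peaks in the outermost 500 kb (42.9%, 21.8 to 66.0%). Replicate 2 had 28 of 135 there (20.7%, 14.2 to 28.6%). In the step from 1.5 to 2 Mb replicate 2 had 15 peaks, against 17 and 15 in the adjacent steps, and replicate 1 had 2. That step was thus dense in the whole-series list alone.

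The same outermost stretch was counted at all 12 chromosome ends to place these values. With 51 whole-series peaks, the left end of X was near the median of the 10 autosomal ends (51.5, range 32 to 93), although X as a whole is sparse. Of these 51 peaks 24 were in neither replicate, against an autosomal median of 14.5 (range 6 to 28), and 1 of the other 11 ends had more. The right end of X, with 21, had fewer than any other end, and 8 of the 21 were in neither replicate. In replicate 2 the counts were 28 on the left end of X and 14 on the right end, against an autosomal median of 32 (range 24 to 64). Replicate 1 had 9 on the left end of X and 3 on the right end, against an autosomal median of 8 (range 2 to 18). The left end of X thus lay within the autosomal range in every list, and its right end lay below that range in all but replicate 1.

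The median whole-series score was somewhat higher on the right arm than on the left arm, with wide overlap. In replicate 2 the order of the medians was the other way. A score here is the caller's own value, of unstated scale, and is compared only within a list. The median whole-series score was 6.88 on the left arm (quartiles 4.13 and 15.4, range 1.34 to 217) and 8.86 on the right arm (5.48 and 19.8, range 1.42 to 232), against 8.30 in the centre of X and 9.81 over all nuclear peaks. As percentiles of the whole list these medians were 38.7, 47.2, 45.0 and 50.1. In the replicate 2 list the median percentile was 40.1 on the left arm and 37.8 on the right arm. In replicate 1 it was 57.4 and 75.6, left arm first. The difference between the arms is small beside the spread of scores on either arm. Intervals of the median percentiles overlap between the arms in each list. Left arm first, they were 32.5 to 45.9 and 40.9 to 53.4 in the whole-series list. They were 33.7 to 47.0 and 33.0 to 44.9 in replicate 2, and 40.8 to 94.6 and 24.2 to 90.3 in replicate 1.

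The arms differed mainly in weak peaks. Of the left-arm peaks 33.5% (27.4 to 39.9%) fell in the lowest-scored 25% of the whole list, and of the right-arm peaks 21.6% (16.0 to 28.1%), against 25.6% in the centre. At the other end of the scale, 10 left-arm peaks (4.29%) and 12 right-arm peaks (6.32%) were among the highest-scored 10% of the list. The centre of X, of the same total length as both arms together, had 4 such peaks (1.38%), and 9.10% of autosomal-arm peaks were in that class. Together the arms therefore held 22 of the 26 peaks of X in the top class.

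Scores differed with replicate support. Peaks in replicate 2 alone had a median score of 11.9 on the left arm and of 11.9 on the right arm (107 and 117 peaks), against 12.5 in the centre. Peaks in neither replicate had medians of 4.58 on the left arm and 5.42 on the right arm. Peaks in both replicates were the strongest, with medians of 21.1 on the left arm (25 peaks) and 55.7 on the right arm (22 peaks). Their interquartile ranges were 13.7 to 149 and 6.17 to 178, so the scores spread widely and overlapped between the arms. No interval is given for these medians.

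**Figure D2:**
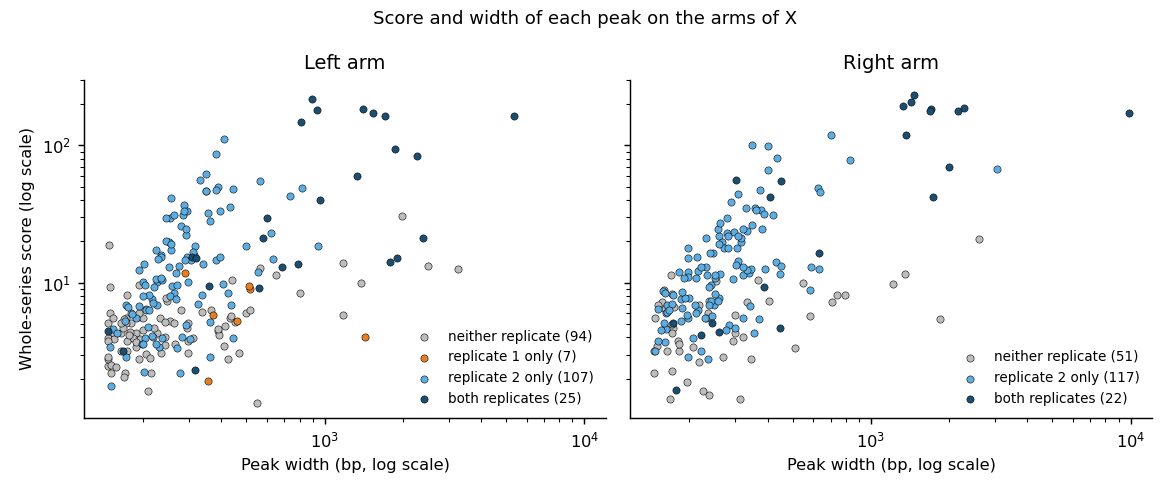
Whole-series score (vertical axis, log scale) against width (horizontal axis, bp, log scale) of every peak on the left and right arms, coloured by the replicates that overlap it. Peaks in both replicates reach the upper right, up to 9835 bp on the right arm, and grey peaks in neither replicate stay at scores of 30.7 or less.

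Most arm peaks were narrow, and a small number of wide ones made up much of the covered sequence. Median width was 265 bp on the left arm (quartiles 199 and 396) and 260 bp on the right arm (197 and 371), against 269 bp in the centre and 324 bp over all nuclear peaks. Peaks of at least 1000 bp numbered 17 on the left arm (7.30%) and 16 on the right arm (8.42%), against 13 in the centre (4.50%). They held 34.4% of the covered sequence of the left arm and 42.6% of that of the right arm, against 20.8% in the centre. Of these wide peaks, 7 of 17 on the left arm and 4 of 16 on the right arm had no replicate 2 peak. The same was true of 7 of 13 in the centre and of 119 of 586 over all nuclear chromosomes.

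Wider peaks tended to score higher. Spearman's rho between score and width was 0.55 across the 233 left-arm peaks and 0.60 across the 190 right-arm peaks, against 0.42 in the centre and 0.69 over all nuclear peaks. These describe peaks of 1 list, which share their libraries. In the replicates' own lists median width was 1841 bp on the left arm and 1576.5 bp on the right arm in replicate 1, and 797 and 784 bp in replicate 2.

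Replicate 2 contained fewer of the left-arm peaks than of the right-arm peaks, and replicate 1 contained a small share of both. A replicate 2 peak overlapped 132 of 233 left-arm peaks (56.7%, 50.02 to 63.1%) and 139 of 190 right-arm peaks (73.2%, 66.3 to 79.3%). The share was 65.1% in the centre of X and 75.3% over all nuclear whole-series peaks. The left arm lies below that genome-wide share by more than its counting error, and the right arm does not. Replicate 1 overlapped 32 left-arm peaks (13.7%, 9.59 to 18.8%) and 22 right-arm peaks (11.6%, 7.40 to 17.0%), against 15.8% over all nuclear peaks. Both intervals include the genome-wide share.

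Both replicates together overlapped 25 left-arm peaks (10.7%) and 22 right-arm peaks (11.6%), against 14.3% over all nuclear peaks. Neither replicate overlapped 40.3% of left-arm peaks (34.0 to 46.9%) and 26.8% of right-arm peaks (20.7 to 33.7%), against 23.2% over all nuclear peaks and 31.5% in the centre. Another 7 arm peaks were in replicate 1 alone (1.65%, 0.668 to 3.38%), near the 1.49% over all nuclear peaks. All 7 lay on the left arm under a single replicate 1 peak.

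Support in replicate 2 was more frequent at higher scores on both arms, as it was over all nuclear peaks. All 28 left-arm and all 30 right-arm peaks in the highest-scored 25% of the list had a replicate 2 peak, against 99.8% over all nuclear peaks in that band. In the next band down, 53 of 63 left-arm peaks (84.1%, 72.7 to 92.1%) and 54 of 60 right-arm peaks (79.5 to 96.2%) had one, against 90.7%. The left arm had the lower share in each band below the highest. In the band below that the shares were 42.2% on the left arm (29.9 to 55.2%) and 64.4% on the right arm (50.9 to 76.4%), against 63.2% over all nuclear peaks. In the lowest-scored 25% they were 30.8% (20.8 to 42.2%) and 41.5% (26.3 to 57.9%), against 47.2%. The intervals of the arms overlap in each band, which does not in itself show that the shares are alike. The difference between the arms at a given score was not tested.

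Support in replicate 1 also rose with the score on the left arm and over all nuclear peaks, but not steadily on the right arm. From the lowest to the highest band its share on the left arm was 6.41%, 9.38%, 15.9% and 39.3%. On the right arm it was 9.76%, 5.08%, 1.67% and 46.7%. Over all nuclear peaks it was 6.48%, 7.80%, 11.1% and 37.9%. The share in the highest band was thus the largest on each arm, and the right arm had no steady increase below it. Below that band the right-arm shares rest on 4 of 41, 3 of 59 and 1 of 60 peaks. Their intervals overlap (2.72 to 23.1%, 1.06 to 14.1% and 0.0422 to 8.94%).

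**Figure D3:**
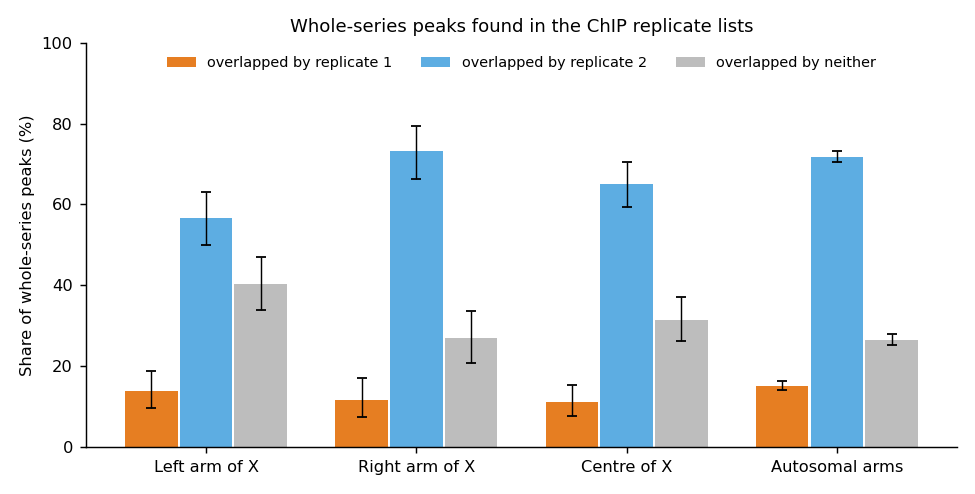
Share of whole-series peaks (vertical axis, percent) overlapped by a replicate 1 peak, by a replicate 2 peak or by neither, for the left and right arms of X, its centre and the autosomal arms. Error bars are exact 95% binomial intervals. The left arm has the lowest replicate 2 share (56.7%) and the highest share in neither (40.3%).

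Spacing also differed between the arms. The gap from the end of a peak to the start of the next had a median of 7.36 kb on the left arm (quartiles 0.954 and 24.0 kb) and 14.5 kb on the right arm (4.09 and 31.3 kb), against 13.3 kb in the centre of X. Gaps under 2000 bp made up 73 of 232 gaps on the left arm (31.5%, 25.5 to 37.9%) and 36 of 189 on the right arm (19.0%, 13.7 to 25.4%), against 26.4% in the centre. The longest stretch without a peak was 166 kb on the left arm and 121 kb on the right arm. Close neighbours were thus more frequent on the left arm, which also had the longer empty stretch.

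Close spacing was less frequent when only peaks with replicate support were counted. With only the 139 supported peaks of each arm, gaps under 2000 bp made up 23.2% on the left arm (16.4 to 31.1%) and 10.1% on the right arm (5.66 to 16.4%). Leaving out any peaks lengthens the gaps that remain. These shares therefore do not tell whether unsupported peaks were the more closely spaced. In the replicate 2 list the shares were 14.2% (8.76 to 21.3%) and 7.33% (3.72 to 12.7%). Replicate 1 had no gap under 2000 bp on either arm, among 20 and 17 gaps. The left arm had the higher share wherever such gaps occurred. The intervals of the arms overlap in the replicate 2 list, however, and they meet for supported peaks alone.

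**Figure D4:**
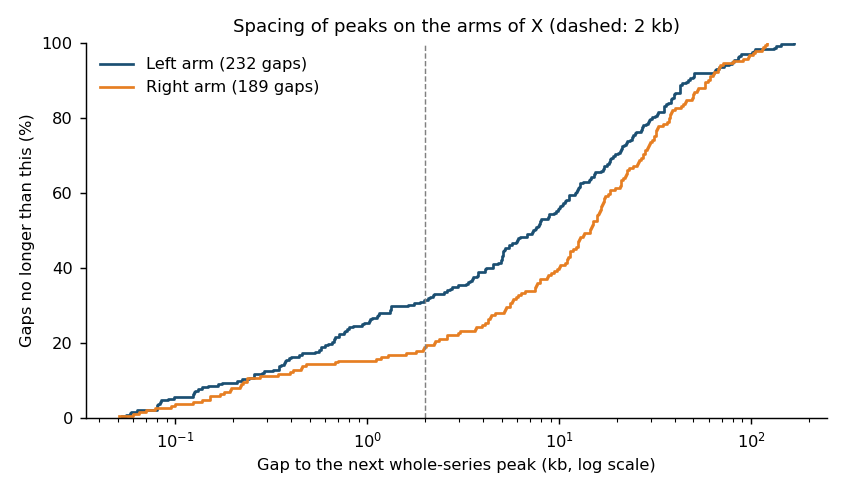
Cumulative share of gaps (vertical axis, percent) by gap length to the next whole-series peak (horizontal axis, kb, log scale) on each arm, with a dashed line at 2 kb. The left-arm line lies above the right-arm line at 2 kb, with 31.5% against 19.0% of gaps.

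Chains of closely spaced peaks were short on both arms. Lone peaks, with no neighbour within 2000 bp on the same arm, were 124 of 233 on the left arm (53.2%) and 129 of 190 on the right arm (67.9%). Runs of at least 5 peaks joined by gaps under 2000 bp numbered 4 on the left arm, with 27 peaks, and 1 on the right arm, with 5. The centre of X had 6 such runs with 50 peaks, the longest of 16, while no run on an arm exceeded 8.

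The runs were of different kinds with respect to the replicates. The left-arm runs from 1136827 to 1140709 (5 peaks, median score 3.74) and from 4044555 to 4048808 (6 peaks, median 3.73) had no peak in either replicate. The left-arm run from 161181 to 170066 held 8 peaks, of which 4 had a replicate 2 peak and 2 a replicate 1 peak, and its scores ran from 3.21 to 172. That run therefore joined strong sites shared by the replicates to weak peaks in neither.

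Another left-arm run, from 1882774 to 1888701, lay almost wholly under 1 replicate 1 peak. That replicate 1 peak, from 1882622 to 1888239, was 5618 bp wide with a score of 146 and overlapped 7 of the 8 whole-series peaks, which scored 1.93 to 11.8. Replicate 2 had no peak under it. Replicate 2 had a single weak peak just beside it, from 1888262 to 1888962 (701 bp, score 58.6). The site was thus broad in replicate 1 and nearly unmarked in replicate 2.

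The right-arm run, from 14791117 to 14792715, was instead marked by both replicates. It was made of 5 whole-series peaks of 173 to 259 bp that scored only 1.67 to 5.13. They lay under 1 replicate 1 peak of 1721 bp (score 278) and 1 replicate 2 peak of 2845 bp (score 782). Each replicate thus showed a single peak where the whole-series list showed 5 small ones.

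The 5 highest-scored peaks of the left arm were all found in both replicates. The peak from 516199 to 517089 had the highest score, 217 (891 bp), with 182 in replicate 1 and 3100 in replicate 2. A score of 3100 is the value at which many replicate scores stop, and such peaks cannot be ranked. The next were from 1503618 to 1505027 (score 185, 1410 bp) and from 2002650 to 2003582 (180, 933 bp), each at 3100 in both replicates. They were followed by the peak from 168526 to 170066 (172, 1541 bp), with 2032 in replicate 1 and 3100 in replicate 2. The peak from 142031 to 143741 (165, 1711 bp) was at 3100 in both. By replicate 1 score the first of these 5 was thus much weaker than the rest.

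On the right arm the 5 highest-scored peaks were likewise in both replicates, all at 3100 in replicate 2. The peak from 14723306 to 14724765 scored 232 (1460 bp), in the 99.8th percentile of the whole list, with 507 in replicate 1. It was followed by 14361973 to 14363396 (208, 1424 bp), with 221 in replicate 1, and 16850962 to 16852292 (193, 1331 bp), with 449. The remaining sites were 13794785 to 13797063 (186, 2279 bp), with 1246 in replicate 1, and 16100094 to 16101797 (185, 1704 bp), with 817. None of these 5 reached 3100 in replicate 1, whereas 3 of the 5 on the left arm did. Among right-arm peaks in both replicates, the highest replicate 1 scores were instead 3100 at the wide peak described next, 2472 from 17309841 to 17311831 (1991 bp, whole-series score 69.7) and 1280.0 from 17419716 to 17421452 (1737 bp, 42.0). Replicate 2 was at 3100 at all 3.

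The widest peak of the right arm was also the widest peak of both replicate lists. The whole-series peak ran from 16929310 to 16939144 (9835 bp, score 172) and ranked 2 of 9212 in width. The replicate 1 peak there was 10661 bp wide, rank 1 of 1178, and the replicate 2 peak 10896 bp wide, rank 1 of 6421, both with a score of 3100. This 1 peak made up 11.3% of the sequence that whole-series peaks covered on the right arm. The sparse X chromosome thus held the broadest single peak of either replicate.

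The widest peak of the left arm ran from 2057730 to 2063094 (5365 bp, score 164, rank 13 in width). It lay under peaks of 7696 bp in replicate 1 (rank 6) and 6508 bp in replicate 2 (rank 16), both at 3100. The next widest on the left arm, from 292001 to 295262 (3262 bp, score 12.6) and from 111601 to 114093 (2493 bp, score 13.2), were in neither replicate. On the right arm the next were from 14119106 to 14122168 (3063 bp, score 66.9), with 3100 in replicate 2 and no replicate 1 peak, and from 14384784 to 14387393 (2610 bp, score 20.9), in neither. Wide peaks thus differed in support, from both replicates to 1 or none.

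Peaks of at least 2000 bp numbered 5 on each arm, of which 3 on each were in both replicates. They were 2.36% of all arm peaks (1.14 to 4.30%), against 1.38% in the centre (0.378 to 3.51%) and 1.52% over all nuclear peaks. The arm interval includes the shares of the centre and of all nuclear peaks. A difference in the share of such wide peaks was thus not detectable at these counts.

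Most replicate 1 peaks on the arms had a replicate 2 peak. Replicate 2 overlapped 18 of the 21 replicate 1 peaks on the left arm (85.7%, 63.7 to 97.0%) and 17 of the 18 on the right arm (94.4%, 72.7 to 99.9%), against 90.8% over all nuclear replicate 1 peaks. In the other direction replicate 1 overlapped 14.1% of left-arm and 11.3% of right-arm replicate 2 peaks, against 16.3% over all nuclear ones. In the 17 one-to-one pairs of each arm the midpoints lay a median of 99 bp apart on the left arm (quartiles 79.5 and 192.5) and 98 bp apart on the right arm (55 and 129). The median width ratio of replicate 1 to replicate 2 was 1.00 on the left arm and 0.942 on the right arm. These pairs were chosen for overlap, which in itself keeps midpoints close. Single pairs differed more in width, such as 2943 bp in replicate 1 (from 3074962 to 3077904) and 4589 bp in replicate 2 (from 3073333 to 3077921).

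Scores within replicate 1 varied widely. Replicate 1 scores ran from 61.9 to 3100 on the left arm (median 182) and from 53.2 to 3100 on the right arm (median 378), against a median of 98.8 for the 23 replicate 1 peaks in the centre of X. Of the one-to-one pairs, 12 of 17 on the left arm and 11 of 17 on the right arm had a replicate 2 score of 3100 or more. Of these, 3 on the left arm had replicate 1 scores of only 61.9, 67.3 and 87.9, below the median of all replicate 1 peaks (148). In replicate 1, 4 left-arm peaks and 1 right-arm peak reached 3100, and all 5 had a replicate 2 peak at 3100. Across the genome the same was true of all 46 replicate 1 peaks at or above that value.

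**Figure D5:**
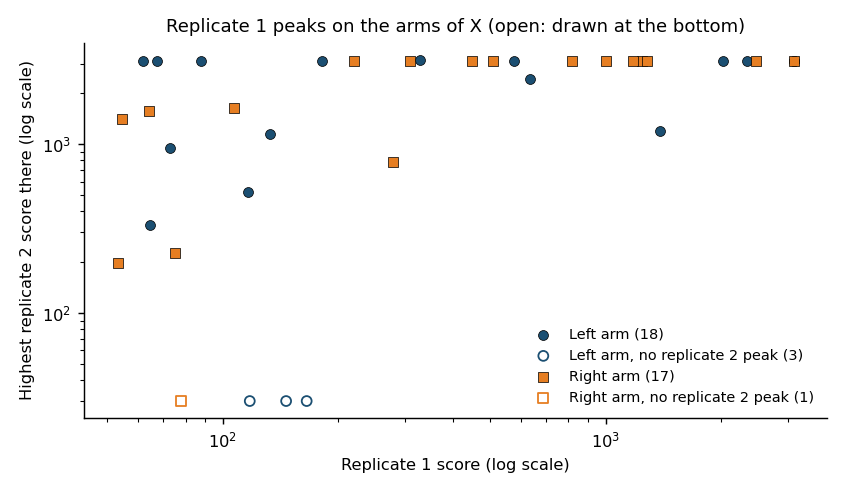
Highest replicate 2 score (vertical axis, log scale) against replicate 1 score (horizontal axis, log scale) for the 39 replicate 1 peaks on the arms of X, with left-arm peaks as circles and right-arm peaks as squares. Open symbols at the bottom are the 3 left-arm peaks and 1 right-arm peak with no replicate 2 peak. Many points lie along the top at 3100.

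Replicate 2 peaks at 3100 or more were scarce on X and evenly divided between its arms. There were 12 on the left arm (8.89% of its replicate 2 peaks, 4.68 to 15.0%) and 13 on the right arm (8.61%, 4.66 to 14.3%), against 7 in the centre (3.24%, 1.31 to 6.56%) and 16.2% of all nuclear replicate 2 peaks. Replicate 1 also had a peak at all 12 on the left arm, at 11 of 13 on the right arm and at 6 of 7 in the centre. Over all nuclear chromosomes replicate 1 had a peak at 687 of the 1040 replicate 2 peaks of that class. All 25 arm peaks of the class were overlapped by the whole-series list.

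Replicate 2 peaks that the whole-series list lacked had low scores. They were 19 of 135 replicate 2 peaks on the left arm, with scores of 50.3 to 163, and 23 of 151 on the right arm, with scores of 50.2 to 201. The whole-series list lacked 14.2% of all nuclear replicate 2 peaks and 6.28% of replicate 1 peaks. It overlapped 85.9% of left-arm replicate 2 peaks (78.9 to 91.3%) and 84.8% of right-arm ones (78.0 to 90.1%), so both arms were near the genome-wide share. In replicate 1 the whole-series list lacked 2 peaks on the left arm, with scores of 118 and 166. It lacked 1 on the right arm, from 17471408 to 17472474, with a score of 78.0. The stronger of the 2 on the left arm lay from 20570 to 21901. It was at the 53.8th percentile of the replicate 1 list, so it was not a weak peak there. No replicate 2 peak covered any of these 3.

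Some replicate peaks overlapped 2 or more whole-series peaks, in part or in full. In replicate 1 this applied to 8 of 21 left-arm peaks and 2 of 18 right-arm peaks, and in replicate 2 to 13 of 135 left-arm and 8 of 151 right-arm peaks. A whole-series peak on the arms, by contrast, never overlapped more than 1 peak of either replicate. A count of whole-series peaks can therefore count a replicate peak more than once. The shares over all nuclear peaks are not given here, so neither pattern is shown to be particular to the arms. The difference between the arms in replicate 1 rests on few peaks and was not tested.

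The extreme ends of X differed. At the left end a whole-series peak covered positions 1 to 318 with a score of only 2.30, the 2.66th percentile of the list. Both replicates had a strong peak there, with scores of 1390.5 in replicate 1 and 1187 in replicate 2. The last peak before the right end, from 17714388 to 17714561 (174 bp, score 6.71), was in neither replicate. The end of the left arm was therefore marked in all 3 lists, and that of the right arm in the whole-series list alone.

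Peaks at the inner limits of the arms give the effect of the position rule. Just inside the left limit lay the peaks from 4388844 to 4389205 (score 28.4) and from 4338941 to 4339174 (10.9). Just outside it lay those from 4457916 to 4458153 (17.8) and from 4462429 to 4462629 (13.1). All 4 were in replicate 2 alone. Just inside the right limit lay the peaks from 13302155 to 13302337 (3.21, in neither replicate) and from 13328850 to 13329095 (16.5, in replicate 2 alone). Just outside it lay those from 13145002 to 13145453 (15.2, in both) and from 13144368 to 13144533 (3.99, in replicate 2 alone). The scores on the inner and outer sides of the limits overlapped.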

How the data were processed

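The 3 deposited lists use the WormBase WS220 build, per the file headers (ce10 in the submitters' processing notes, which also name BWA, without a version, for alignment). Each peak's score was deposited by the authors, whose callers were MACS v2 for the whole-series list and MACS without a version for the replicate lists, per the file contents. The score's scale, the threshold, the input used, the handling of duplicate reads and whether the whole-series list came from pooled replicates are not given in the sources used here. Read counts and input samples were not used here, so depth is unknown.

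Midpoints, gaps, runs and overlaps (at least 1 bp) were computed with Python 3.11.15, pandas 2.3.3, NumPy 2.4.6 and SciPy 1.17.1, with the interval code tested on simulated data. Mitochondrial peaks (2) were left out. Lengths of the autosomes were typed in as a setting. Shares have exact Clopper-Pearson and densities exact Poisson 95% intervals, and density ratios have exact conditional binomial intervals. All cover counting error only, and clustering makes them too narrow. No p-value was computed.

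For each arm the peaks named are the 5 highest-scored, the 3 widest, the 3 in both replicates with the highest replicate 1 score (described where not already named), all runs of at least 5 peaks, those nearest the chromosome end and beside the inner limit, and the highest-scored replicate 1 peak without a whole-series peak. The members, groups and rules were chosen with earlier results of these data known. A reference of another genome build was not used.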

Additional observations from a re-analysis of the deposited data

How the results depend on the processing

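Of 70 combinations of a result with another setting, 43 stayed within the interval of the value as reported, 26 moved outside it and 1 turned the direction. No paired analysis was possible because the input samples had no list here and no test was made across samples. The density ratio of arms to centre stayed within its interval in all 9 settings (1.32 to 1.70). The left to right ratio ranged from 0.894 (replicate 2 list, the reverse direction) to 1.17 (replicate 1 list) in single replicates. It was 1.00 without peaks in neither replicate, 1.01 in the higher-scored 50% of the list, 1.11 without runs of 5 or more peaks and 1.08 without the outermost 500 kb. In the higher-scored 50%, replicate 1 overlapped 23.1% of left-arm peaks, and replicate 2 overlapped 89.0% of left-arm and 93.3% of right-arm peaks. With replicate 2 limited to its 1178 highest-scored peaks the replicate 2 shares were 8.58% and 8.42%. Arms of 20% or 33.3% of the length moved no value outside its interval.

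Gaps under 1000 bp made up 25.4% on the left arm, and gaps under 5000 bp 42.2% on the left and 28.0% on the right arm. With peaks less than 500 bp apart joined, gaps under 2000 bp made up 17.2% on the left and 5.56% on the right arm, and with supported peaks alone 23.2% and 10.1%. In single replicate lists they ranged from 0% to 14.2% on the left and from 0% to 7.33% on the right arm. Single lists gave median score percentiles of 40.1 to 57.4 on the left and 37.8 to 75.6 on the right arm (the left arm was the higher in replicate 2), and median widths of 797 to 1841 bp and 784 to 1576.5 bp. The outermost 500 kb held 20.7% to 42.9% of left-arm and 9.27% to 16.7% of right-arm peaks in them. For the density ratios, leaving out peaks in neither replicate, runs or the outermost 500 kb, and every setting for the outermost 500 kb share, were chosen after seeing the data. Limiting replicate 2 leaves fewer peaks to overlap, and joining removes short gaps. For the other changes the cause was not tested. Unknown depth limits every comparison between lists.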

Other observations

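The rank of some arm sites differed widely between the lists. They were picked after their values were seen. The left-arm peak from 4146027 to 4147920 scored 15.1 (1894 bp, the 60.3rd percentile), while the replicate 2 peak over it scored 3159.9 and was 4147 bp wide, and the replicate 1 peak scored 327. No other replicate 2 peak at 3100 or more, on any nuclear chromosome, had a highest whole-series score below that 15.1. On the left arm the median of the highest whole-series scores under replicate 2 peaks of that class was 156, and on the right arm it was 177. The highest-scored left-arm peak in neither replicate reached 30.7 (from 289884 to 291863, 1980 bp), and it lay beside the unsupported peak of 3262 bp described above. The highest on the right arm reached 20.9.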
